A study of Mus musculus with 24 samples.

Results

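The 6 genes described here encode the main products of a maturing red cell: the adult beta globins Hbb-bs and Hbb-bt, the adult alpha globins Hba-a1 and Hba-a2, Alas2, the erythroid enzyme of the first step of heme synthesis, and Slc4a1, the anion exchanger known as band 3. They were found by symbol among the 17149 genes of the deposited table, and all 6 were present. They were selected on their measured values in these libraries, which were higher in the Tal1-deleted samples, so their differences between genotypes are a description. The number of them past the test's threshold is given beside the share of all genes, and nothing is read from it. Bulk RNA had been sequenced from 24 libraries of mouse bone marrow cells in the LSK gate (no lineage markers, with Sca1 and Kit), a gate for stem cells and multipotent progenitors rather than for red cell precursors. Within the gate, cells without CD135 are called HSC, and those with it are called LMPP (lymphoid-primed multipotent progenitors). Each was divided by a Rag2-GFP reporter, which marks cells that transcribe a gene of antigen receptor rearrangement.

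The groups were Ctrl, wild type by label with both Tal1 alleles floxed (Tal1 F/F) and the Rag2GFP allele, and KO, which in addition carried VaviCre. Both genotypes thus shared the floxed Tal1 alleles and the reporter, and no label gives a control with VaviCre alone or an age. Vav regulatory sequence drives Cre in blood cells from the stem cell onward, so the deletion is not limited to the sorted populations. Genotype, CD135 and GFP made 8 groups of n = 3. Whether the 3 are separate animals is not stated by the labels, so every p-value reflects a spread between libraries that could be technical.

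Adult haemoglobin is a tetramer of alpha and beta globin chains, each of which holds a heme group. Heme supply in red cell precursors depends on Alas2, and an imbalance between alpha and beta chains is the basis of the thalassaemias. Band 3 exchanges bicarbonate for chloride and anchors the spectrin skeleton to the membrane. TAL1 is known as a partner of GATA1 in the transcription of red cell genes, and loss of Tal1 in the embryo prevents blood formation.

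Values are the authors' normalised counts, with library totals between 6906083 and 11969093, and read depth is unknown. A pair of libraries listed fewer genes above 1 than the rest: replicate 2 of Ctrl GFP-positive HSC with 11982, and replicate 3 of KO GFP-positive LMPP with 11684, where the remaining 22 had 13583 to 15957. Between groups that hold this low-detection pair, fitted differences of the members are given with and without it, singly or as a range or median. Calls of other genes there are given with and without the pair or the library of it that was compared. Tal1, the targeted gene, had KO means of 364 ± 137 (SD, n = 3 throughout) in GFP-negative HSC, 243 ± 90.2 in GFP-positive HSC, 306 ± 45.5 in GFP-negative LMPP and 66.6 ± 68.0 in GFP-positive LMPP. The Ctrl means in that order were 1793 ± 296, 511 ± 266, 778 ± 178 and 496 ± 91.4. The 5 genes Kit, Ly6a (Sca1), Ptprc, Cd34 and Flt3 (CD135) were read as surface genes of such cells. Each was above 1 ppm (1 normalised count per 1000000 of the library total) in at least 1 library of each group. Their summed level was between 1192 and 2516 ppm. Ptprc and Cd34 are not in the gate described above, and HSC were sorted without CD135, so these levels are not a check of the sort.

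The promoters are shown first because the genes lay on 3 chromosomes and differed between genotypes in the same direction. In GENCODE M21 (GRCm38/mm10), Hbb-bs (ENSMUSG00000052305, chr7:103826534-103828096) and Hbb-bt (ENSMUSG00000073940, chr7:103812524-103813996) lie on the minus strand of the beta globin cluster. Hba-a1 (ENSMUSG00000069919, chr11:32283511-32284465) and Hba-a2 (ENSMUSG00000069917, chr11:32296489-32297298) lie on the plus strand. Slc4a1 (ENSMUSG00000006574, chr11:102348824-102366203, minus strand) is elsewhere on the same chromosome, and Alas2 (ENSMUSG00000025270, chrX:150547375-150570638, plus strand) is X-linked. The 130 bases before the RefSeq start are printed 5′ to 3′ on the gene's strand, from RefSeq on GRCm38.p6, for 1 gene of the near-identical alpha pair and for both beta genes and Alas2. Capitals mark the CACCC box bound by factors of the KLF1 family, the CCAAT box, the TATA-like letters ATATAA and the GATA-type letters GATAA, each on either strand. The windows are chr7:103827929-103828058 for Hbb-bs, chr7:103813924-103814053 for Hbb-bt, chr11:32283542-32283671 for Hba-a1 and chrX:150547287-150547416 for Alas2. The gene bounds of GENCODE M21 reach further upstream than these RefSeq starts.
Hbb-bs: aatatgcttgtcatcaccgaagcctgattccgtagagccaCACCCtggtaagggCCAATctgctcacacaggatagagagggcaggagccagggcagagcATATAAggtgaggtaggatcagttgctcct
Hbb-bt: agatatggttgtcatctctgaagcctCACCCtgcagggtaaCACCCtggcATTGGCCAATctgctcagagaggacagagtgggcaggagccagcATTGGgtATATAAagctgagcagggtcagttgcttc
Hba-a1: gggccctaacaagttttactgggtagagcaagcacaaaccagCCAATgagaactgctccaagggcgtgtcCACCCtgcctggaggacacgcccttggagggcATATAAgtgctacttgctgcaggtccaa
Alas2: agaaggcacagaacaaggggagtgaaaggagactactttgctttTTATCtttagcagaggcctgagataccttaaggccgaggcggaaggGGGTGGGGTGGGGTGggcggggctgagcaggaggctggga

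These 4 windows and that of Hba-a2 (chr11:32296362-32296491) matched the promoter table, and Slc4a1 is named only. All 4 globin windows held a CACCC box, a CCAAT box and the TATA-like letters, which began at position -30 in Hbb-bs, -29 in Hbb-bt, -28 in Hba-a1 and -31 in Hba-a2, counted back from the start. None of the 4 held GATAA. The window of Alas2 held 3 copies of CACCC as its reverse complement and 1 of GATAA, and neither the CCAAT box nor the TATA-like letters. Searched on both strands over 32851 promoter windows of 130 bases, the CACCC box was present in 33.7%, the CCAAT box in 22.4%, the TATA-like letters in 4.75% and the GATA-type letters in 11.4%. The E-box letters CANNTG, in 42.7% of windows, were present once each in Hbb-bs and Hbb-bt and not in the other 3, and no 2 matches of any motif overlapped. A match is a description of letters and not of a bound site.

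How reads are divided within each globin pair is uncertain. Of the 76-base windows of Hba-a1 transcripts, 67.8% also occur in Hba-a2, and 84.4% of those of Hba-a2 occur in Hba-a1. For the beta genes the shares were 51.4% of Hbb-bs and 56.5% of Hbb-bt. A read from such a window cannot be placed, and how the counting treated it is not stated by any source used. The alpha promoter windows were identical at 127 of 130 aligned bases (97.7%) and the beta windows at 102 (78.5%).

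Hbb-bs, the adult beta globin with the highest level per exon length, was higher in every KO library than in every Ctrl library of the same population. In GFP-negative HSC the 3 Ctrl libraries stood at 37.3, 52.3 and 128 normalised counts and the 3 KO libraries at 1519, 1708 and 1113. In GFP-positive HSC Ctrl stood at 19.8, 0.0324 and 40.2 and KO at 238, 501 and 736. The lowest KO library was thus above the highest Ctrl library in both, although the level of 0.0324 came from the Ctrl library of low detection. In GFP-negative LMPP Ctrl stood at 25.1, 32.8 and 76.6 and KO at 922, 1134 and 1262. In GFP-positive LMPP Ctrl stood at 15.9, 4.34 and 62.1 and KO at 421, 559 and 5165, the last being the KO library of low detection. The ratio of group means was 20.0, 24.6, 24.7 and 74.6 in the order in which the populations are given here. The fitted differences of KO minus Ctrl, on the scale log2(normalised count + 4.1), were 4.40, 4.78, 4.64 and 5.58 (SE 0.84 each), and with the low-detection pair left out the GFP-positive differences were 3.79 in HSC and 4.46 in LMPP.

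Hbb-bt, the second adult beta globin, followed the same pattern with 1 exception. Ctrl and KO libraries stood at 22.4, 27.6 and 44.9 against 693, 755 and 573 in GFP-negative HSC. They stood at 46.0, 40.4 and 66.8 against 549.9, 670 and 754 in GFP-negative LMPP and at 14.5, 17.7 and 16.996 against 153, 294 and 1772 in GFP-positive LMPP. In these 3 populations the groups did not overlap, with log2 differences of 4.29, 3.60 and 4.42 (SE 0.77). In GFP-positive HSC the groups did overlap, because Ctrl replicate 2, the library of low detection, listed 242 beside 16.6 and 24.2 in the other Ctrl libraries and 95.8, 312 and 359 in KO. The same library listed Hbb-bs at 0.0324 and the other 4 members each at 0.032. The difference there was 2.10 with all libraries and 3.23 without the low-detection pair. In GFP-positive LMPP the level of 1772 came from the KO library of low detection, and the difference of Hbb-bt was 3.41 without the pair.

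The alpha globins differed in the same direction. Hba-a1 stood at 21.2, 8.25 and 28.9 in Ctrl against 379, 265 and 209.8 in KO GFP-negative HSC, and at 9.33, 2.70 and 24.1 against 199.6, 265 and 218 in GFP-negative LMPP. In GFP-positive cells it stood at 0.259, 0.032 and 9.87 against 83.1, 127 and 124 in HSC and at 8.78, 10.3 and 9.22 against 107, 157 and 781 in LMPP. No Ctrl library reached a KO library of its population, and the log2 differences, in the order used for Hbb-bs (GFP-negative then GFP-positive HSC, then the LMPP likewise), were 3.69, 4.17, 4.07 and 4.16 (SE 0.73). Those of GFP-positive cells were 3.90 in HSC and 3.32 in LMPP without the low-detection pair. Hba-a2, the near-identical neighbour, stood at 8.79, 11.3 and 25.0 against 324, 277 and 231 in GFP-negative HSC and at 6.70, 3.28 and 20.8 against 213, 229 and 212 in GFP-negative LMPP. In GFP-positive HSC it stood at 14.98, 0.032 and 6.67 against 64.3, 136 and 138, and in GFP-positive LMPP at 1.62, 3.59 and 2.23 against 62.9, 128 and 1702. Again the groups did not overlap, and the log2 differences in the same order were 3.96, 3.55, 4.14 and 5.24 (SE 0.86). Without the low-detection pair the difference of Hba-a2 was 2.97 in GFP-positive HSC and 3.88 in GFP-positive LMPP.

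Alas2, which catalyses the first step towards the heme that globins carry, had the smallest difference of the 6 in each population except GFP-positive HSC, where that of Hbb-bt was smaller with all libraries. It stood at 33.5, 17.3 and 45.9 in Ctrl against 146, 126 and 132 in KO GFP-negative HSC. In GFP-positive HSC it stood at 3.56, 0.032 and 19.4 against 36.6, 63.7 and 76.2. These groups did not overlap, with ratios of group means of 4.17 and 7.66. In GFP-negative LMPP it stood at 73.4, 9.63 and 41.2 against 61.6, 138 and 279, and in GFP-positive LMPP at 17.3, 3.59 and 59.1 against 49.7, 46.9 and 247. Here 1 Ctrl library in each population lay within the KO range. The log2 differences in the order used above were 2.01, 2.74, 1.92 and 2.02 (SE 0.86), and the GFP-positive ones were 2.19 in HSC and 1.27 in LMPP without the low-detection pair.

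Slc4a1, the membrane anion exchanger, stood at 36.0, 45.1 and 37.9 in Ctrl against 398, 716 and 554 in KO GFP-negative HSC, a narrow Ctrl range. In GFP-positive HSC it stood at 0.261, 0.032 and 53.0 against 81.9, 392 and 202. In GFP-negative LMPP it stood at 13.3, 7.91 and 62.8 against 286, 455 and 326. The Ctrl libraries of these 2 populations were thus uneven, with 1 well above the others. In GFP-positive LMPP all 3 Ctrl libraries were near 0, at 0.178, 0 and 1.46, against 87.7, 234 and 437 in KO. The groups did not overlap in any population, and the log2 differences in the same order were 3.64, 4.25, 3.87 and 5.53 (SE 0.84), the GFP-positive ones being 3.63 in HSC and 5.05 in LMPP without the low-detection pair. The fitted difference for GFP-positive LMPP depends on the constant added before the logarithm, since 1 of its Ctrl libraries is listed at 0.

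**Figure D1:**
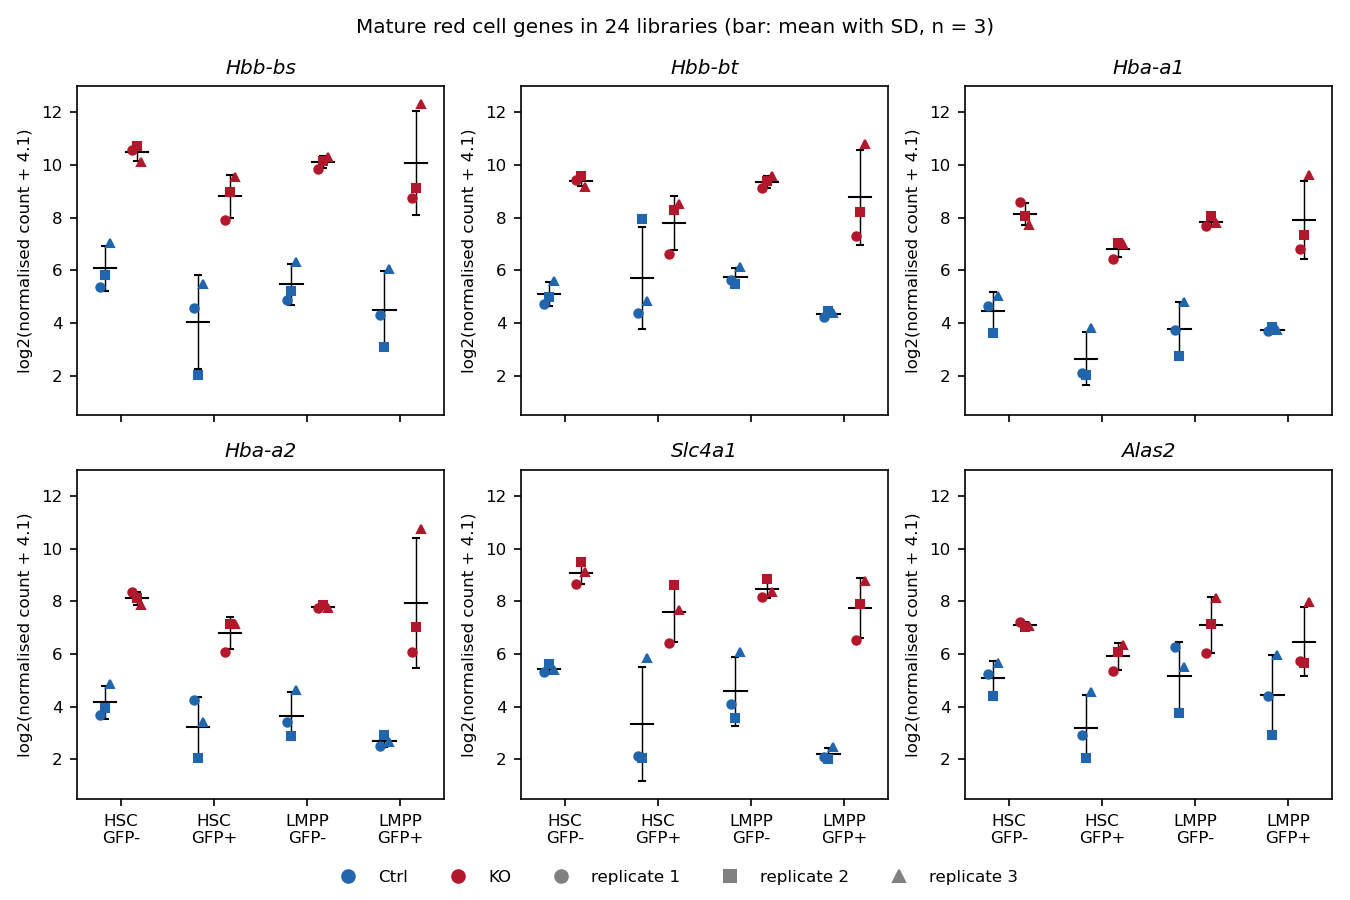
Each panel plots 1 gene on the scale log2(normalised count + 4.1), with 1 point per library (blue Ctrl, red KO, symbols for replicates 1 to 3) and the mean with its SD over n = 3 in black. KO points of Hbb-bs lie between 238 and 5165 normalised counts and Ctrl points at or below 128, while KO and Ctrl points overlap for Hbb-bt in GFP-positive HSC and for Alas2 in both LMPP populations.

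The 6 genes summed to between 77.5 and 944 ppm in KO and between 5.58 and 44.8 ppm in Ctrl. Without the library of low detection the highest KO sum was 504 ppm. Counted by population, 6, 5, 5 and 5 of the 6 had every KO library above every Ctrl library (first the HSC without and with GFP, then the LMPP). Over all 16215 genes tested the share with that order was 6.66, 9.36, 5.38 and 4.3%. In limma's test 3, 3, 2 and 5 of the 6 had an adjusted p under 0.05, where 0.16, 0.432, 0.0555 and 0.0432% of all genes did in either direction. Nothing is read from these counts, since the genes were chosen for this contrast. The median log2 difference of the 6 was 3.82, 3.86, 3.97 and 4.83, beside 0.02, 0.19, -0.01 and -0.10 over all genes, and without the low-detection pair it was 3.43 in GFP-positive HSC and 3.65 in GFP-positive LMPP. With totals made equal the median over all genes was 0.12, 0.52, -0.12 and -0.26, and the direction of no member changed. In bulk RNA, fewer cells of a type and less RNA per cell cannot be told apart.

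**Figure D2:**
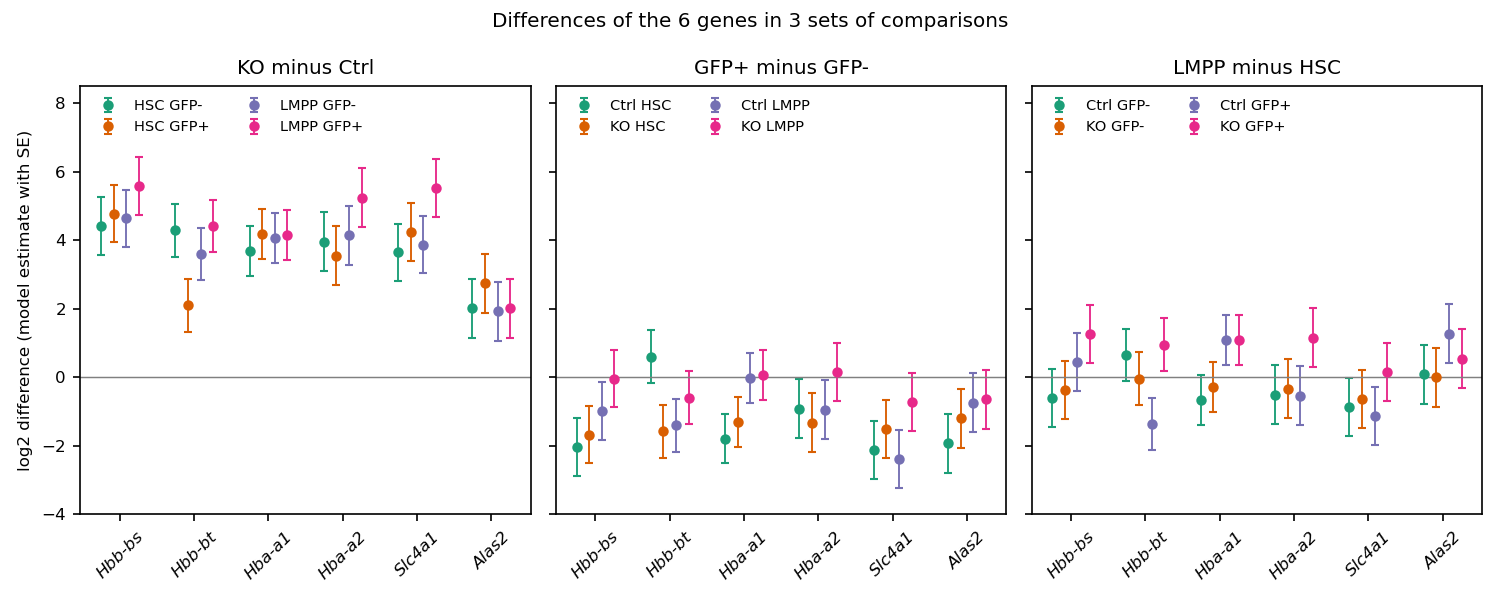
The plot of fitted log2 differences with their SE shows KO minus Ctrl on the left, GFP-positive minus GFP-negative in the middle and LMPP minus HSC on the right, with 1 colour per group of libraries. All 24 KO minus Ctrl values are above 0, from 1.92 to 5.58, while no member passed in the middle or right panel.

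Levels of other cell types' markers are given beside these differences, and their part in them was not tested. The 8 neutrophil markers summed to 79.9 to 335 ppm in Ctrl and 176 to 740 ppm in KO GFP-negative HSC and overlapped between genotypes in the other populations too. The mast cell and basophil markers, 6 of 7 of which were in the table, summed to 276 to 1201 ppm in KO against 23.0 to 59.2 ppm in Ctrl GFP-negative HSC. They summed to 209.8 to 331 against 43.8 to 147 ppm in GFP-positive HSC and to 3.74 to 344 against 0.0994 to 1.61 ppm in GFP-negative LMPP, so that the groups did not overlap in these 3. In GFP-positive LMPP, where the members were also higher in KO, the same list summed to 0.271 to 1.49 ppm in KO and 2.94 to 3.22 ppm in Ctrl, and 5 of its 6 genes (Mcpt4, Cma1, Tpsb2, Cpa3 and Ms4a2) were under 1 ppm in all 3 KO libraries. The 5 platelet markers overlapped between genotypes in 3 populations, and in GFP-negative LMPP they summed to 23.8 to 24.8 ppm in KO against 11.1 to 18.6 ppm in Ctrl. Of 6 B and plasma cell markers 5 were in the table, with sums of 113 to 218 ppm in KO against 62.5 to 102 ppm in Ctrl GFP-negative HSC and overlapping sums elsewhere. The macrophage markers, 6 of 7 in the table, summed to at most 36.0 ppm in any library, and C1qa or Adgre1 was under 1 ppm in all 3 libraries of each group.

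Ranked by group mean, the 4 KO groups stood above the 4 Ctrl groups for each of the 6 genes. For Hbb-bs the order was KO GFP-positive LMPP (2048 ± 2700.2, SD), KO GFP-negative HSC (1447 ± 304), KO GFP-negative LMPP (1106 ± 172) and KO GFP-positive HSC (492 ± 249), each n = 3. The first place rested on the library of low detection, and only the last step of these had ranges that did not overlap. The Ctrl groups followed at 72.5 ± 48.5 in GFP-negative HSC, 44.8 ± 27.8 in GFP-negative LMPP, 27.4 ± 30.6 in GFP-positive LMPP and 20.0 ± 20.1 in GFP-positive HSC, and each overlapped with the next. Slc4a1 was highest in KO GFP-negative HSC (556 ± 159) and Alas2 in KO GFP-negative LMPP (159 ± 110), and the 4 KO groups of both overlapped with their neighbours.

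The reporter gate and the CD135 gate are contrasts that the choice of genes did not name, although they use the same libraries. In KO HSC, all 6 genes had every GFP-positive library below every GFP-negative library, and over all genes 9.04% had that order. Hbb-bs, for example, stood at 238, 501 and 736 in GFP-positive against 1519, 1708 and 1113 in GFP-negative libraries. The log2 differences ranged from -1.67 for Hbb-bs to -1.19 for Alas2 (SE 0.73 to 0.86), and their median was -1.42 beside -0.05 over all genes. None of the 6 passed in limma's test (adjusted p from 0.923 to 0.999, 0.376% of all genes called), and 1 of the 6, Hbb-bt, had an unadjusted p under 0.05, as did 5.41% of all genes. Fitted on these 6 libraries alone, Hbb-bs passed (log2 -1.67, adjusted p = 0.0262), and with each library weighted by its fit to the model (limma's array weights) Hbb-bt passed (-1.76, adjusted p = 0.0334).

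In Ctrl HSC 5 of the 6 genes had a lower fitted mean in GFP-positive cells, from -2.11 for Slc4a1 to -0.92 for Hba-a2, while that of Hbb-bt was higher by 0.60. The value of Hbb-bt rested on the level of 242 in Ctrl replicate 2, and it was -0.51 without the low-detection pair. Without that pair all 6 were lower in GFP-positive cells, from -1.501 for Hba-a1 to -0.32 for Hba-a2, and their median was -1.21 where it was -1.85 with all libraries. For each of the 6 the libraries of the groups overlapped. None passed in limma's test (lowest adjusted p = 0.183, 2.72% of all genes called), while 4 had an unadjusted p under 0.05, as did 17.7% of all genes. Without Ctrl GFP-positive HSC replicate 3, which had the highest Slc4a1 of that group at 53.0, Slc4a1 passed with -3.36 (adjusted p = 0.00948). In LMPP none of the 6 passed by GFP, in Ctrl (0.0555% of all genes called, 1 member with an unadjusted p under 0.05 as had 4.96% of all genes) or in KO (1.15% called, and 0 members with an unadjusted p under 0.05, where 15.5% of all genes had one). In Ctrl LMPP, 2 of the 6, Hbb-bt and Slc4a1, had every GFP-positive library below every GFP-negative one, as did 8.23% of all genes. The log2 differences there ranged from -2.39 for Slc4a1 to -0.02 for Hba-a1 in Ctrl and from -0.73 for Slc4a1 to 0.15 for Hba-a2 in KO. The KO values changed without the low-detection pair, to -1.24 for Hba-a2, -0.78 for Hba-a1, which had been 0.07, -1.17 for Hbb-bs, which had been -0.04, and -1.60 for Hbb-bt, which had been -0.59. Slc4a1 changed to -1.26, and Alas2 to -1.40, which had been -0.64. All 6 were then below 0, with a median of -1.25 where it was -0.31 with all libraries, and none passed (lowest adjusted p = 0.163). With library weights Slc4a1 passed in Ctrl LMPP (-2.77, adjusted p = 0.0395) and Hbb-bt in KO LMPP (-1.47, adjusted p = 0.0352).

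Between LMPP and HSC none of the 6 passed in limma's test in any of 4 comparisons, and none had an unadjusted p under 0.05. The shares of all genes called were 0.37% in Ctrl GFP-negative, 0.894% in Ctrl GFP-positive, 0.876% in KO GFP-negative and 0.611% in KO GFP-positive cells. In KO GFP-negative cells the differences lay close to 0, from -0.63 for Slc4a1 to -0.0009 for Alas2, with SE between 0.73 and 0.86, so that a difference of the size of 1 SE could not be seen. In 1 case, Hba-a2, every LMPP library (212 to 229) was below every HSC library (231 to 324), an order that 11.1% of all genes had. In KO GFP-positive cells all 6 had a higher fitted mean in LMPP, with a median of 1.02, but without the low-detection pair the values lay between -0.37 and 0.23 with 4 of 6 below 0. In Ctrl GFP-positive cells the median was -0.04, and -0.40 without the pair. The 4 interactions asked whether the KO difference itself depended on GFP or on CD135. No member passed in any of them (0.00617% of all genes called for GFP in HSC, 0% for GFP in LMPP, 0% for CD135 in GFP-negative and 0.0308% for CD135 in GFP-positive cells), and 1 had an unadjusted p under 0.05, in the last, where 12.5% of all genes had one. The median interactions that involve GFP-positive cells moved without the low-detection pair, from 0.43 to -0.32 for GFP in HSC, from 0.88 to -0.24 for GFP in LMPP and from 1.05 to 0.43 for CD135, and no member passed. A p that misses the threshold does not show that the genotype difference was equal in the 4 populations.

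Ratios between the genes, after division by exon length, describe how evenly they moved. A ratio was taken only where the denominator was at least 5 ppm and both values were above 0. The 12 KO libraries met this for each ratio, but only 0 to 11 of the 12 Ctrl libraries did. The numerator had no minimum, so the Ctrl library of low detection gave ratios from values of 0.032, which is near 0. The ratios are built from the values on which the genes were chosen, and the minimum leaves out Ctrl libraries alone, so they are given with no test between genotypes. In KO, summed alpha over summed beta globin ranged from 0.216 to 0.446 (median 0.290), a range of 2.07 times while Hbb-bs itself ranged from 238 to 5165. The alpha genes share more of their 76-base windows (67.8 and 84.4%) than the beta genes do (51.4 and 56.5%). Division by exon length does not allow for this, so the size of any ratio with summed globin depends on how unplaced reads were counted. The median of 0.290 is thus not a measure of the balance between alpha and beta chains. Hbb-bs over Hbb-bt ranged from 1.47 to 2.67 (median 1.83). In the 3 KO GFP-negative LMPP libraries that ratio was between 1.53 and 1.55, and in the 3 Ctrl libraries it was 0.498, 0.745 and 1.05. In GFP-negative HSC the 1 Ctrl library with a ratio had 2.60, against 1.78 to 2.07 in KO. In GFP-positive HSC the 1 Ctrl ratio, 0.000122, came from the library of low detection. Among KO libraries the ratio of the beta pair thus varied by less than the level did. The uncertain read placement described above applies to this ratio. Hba-a1 over Hba-a2 ranged from 0.738 to 1.40 in 11 KO libraries, and it was 0.377 in the KO library of low detection, which listed Hba-a2 at 1702 and Hba-a1 at 781.

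Slc4a1 over summed globin ranged from 0.0181 to 0.0550 in 11 KO libraries and was 0.00700 in the library of low detection. It overlapped between KO and Ctrl in GFP-negative HSC (0.0208 to 0.0395 against 0.0256 to 0.0686) and GFP-negative LMPP (0.0202 to 0.0300 against 0.0149 to 0.0503). In GFP-positive HSC the genotypes overlapped as well (0.0225 to 0.0550 against 1.9e-05 to 0.0994). In GFP-positive LMPP the 1 Ctrl ratio, 0.00249, was below those of KO. Alas2 over summed globin was 0.0129 to 0.0191 in KO against 0.0536 to 0.117 in Ctrl GFP-negative HSC. In GFP-negative LMPP it was 0.0101 to 0.0351 against 0.0370 to 0.255, and in GFP-positive LMPP 0.00806 to 0.0209 against 0.0306 and 0.205 in the 2 Ctrl libraries with a ratio. In all 3 populations every KO ratio lay below every Ctrl ratio. In GFP-positive HSC the KO ratios of 0.0173 to 0.0236 lay within the Ctrl range of 3.8e-05 to 0.0743, whose lowest value came from the library of low detection. The alpha over beta ratio of KO and Ctrl overlapped in GFP-negative HSC and in GFP-negative LMPP. It also overlapped in GFP-positive HSC, at 0.245 to 0.446 in KO against 0.000254 (the library of low detection) and 0.255 in Ctrl. In GFP-positive LMPP the 1 Ctrl ratio, 0.140, was below the KO ratios of 0.296 to 0.380.

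**Figure D3:**
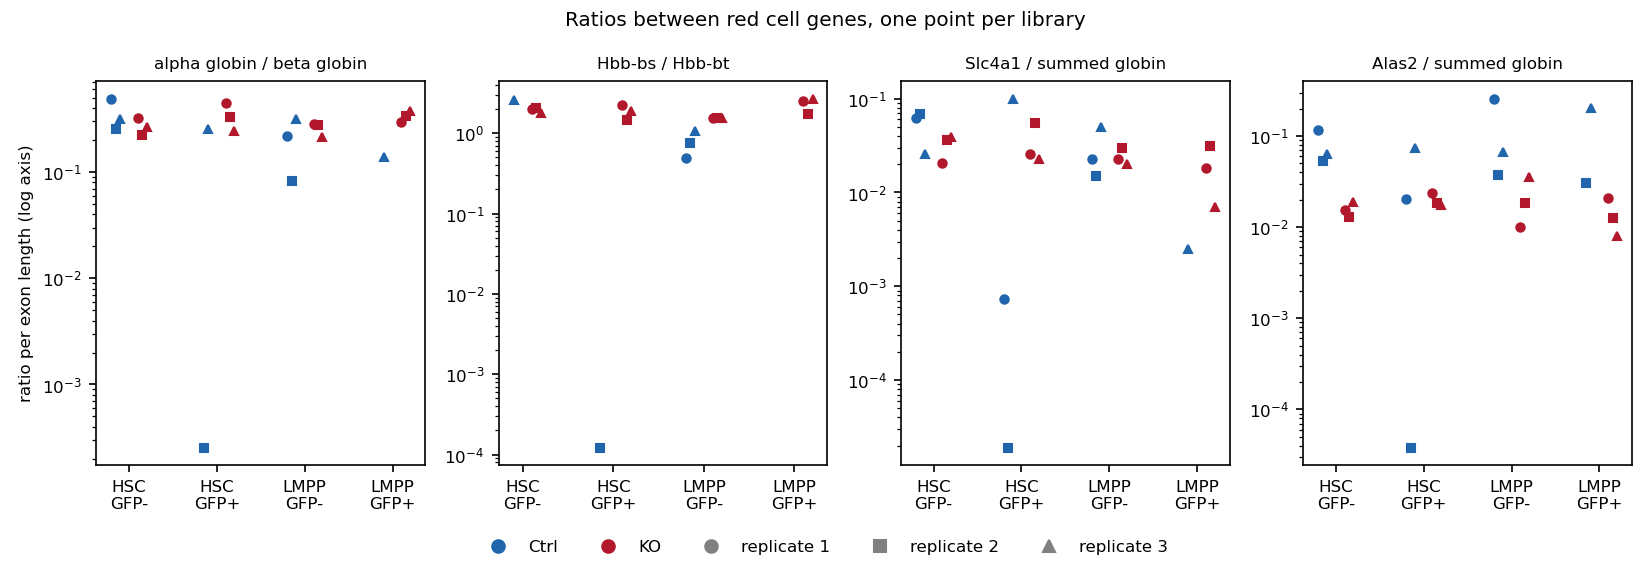
The plot of ratios per exon length (log axes) has 1 point per library that met the minimum of 5 ppm with both values above 0. KO points of alpha over beta globin lie within 0.216 to 0.446, KO points of Alas2 over summed globin lie below the Ctrl points in 3 of 4 populations, and the lowest blue square of each panel is the Ctrl GFP-positive HSC library of low detection.

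Libraries also shared a number in their labels, 3 numbers in each genotype, each present in all 4 populations. What the number stands for is not stated. In Ctrl, the library numbered 269 had the highest value in 17 of 24 combinations of gene and population, against 5 for 264 and 2 for 262. In KO, the library numbered 270 was highest in 13 of 24, 265 in 8 and 263 in 3. Over all genes the correlation between libraries of 1 number within the fit was 0.0374.

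Across the 24 libraries the members followed each other on the log2 scale, which the difference between genotypes alone would give. Hbb-bs and Hba-a2 had Pearson r = 0.96, and 0.78 for deviations from the 8 group means (0.65 without the low-detection pair). Between members, r for such deviations ranged from 0.19 (Hbb-bt and Alas2) to 0.79 (Hba-a1 and Hba-a2). For Hbb-bs and Hbb-bt it was 0.19, and 0.35 without the low-detection pair. Hbb-bs and Hbb-bt had r = 0.84 over all libraries and 0.97 over the 12 KO libraries. Over the 12 Ctrl libraries it was -0.31, where the library of low detection listed the genes at 0.0324 and 242. Slc4a1 and Alas2 had r = 0.82 over all libraries and 0.57 for deviations from group means. These are descriptions over libraries that share genotype and number.

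By the fixed rule of the highest r over 24 libraries among 10905 genes with at least 5 ppm in their highest group, Tent5c was the gene most like both Hbb-bs (r = 0.88) and Slc4a1 (r = 0.86). Tent5c encodes a poly(A) polymerase. It ranged from 44.6 to 528 in KO, median 170, and from 0 to 82.6 in Ctrl, median 1.27. The next for Hbb-bs were Serpini1 (0.83), Btnl10 (0.80), Acer3 (0.80), Syt11 (0.77) and Gem (0.76). Among those for Slc4a1 were Btnl10 (0.82), Serpini1 (0.77), Foxd2os (0.75) and the beta spectrin gene Sptb (0.74). For Alas2 they were Syt11 (0.80), Fbxw9 (0.80), Gem (0.79), Ggh (0.77), Elovl7 (0.76) and Sun1 (0.75). Within groups the r of Tent5c was 0.29 with Hbb-bs and 0.21 with Slc4a1.

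The other genes of the red cell programme were read in 6 lists holding 83 genes. These lists were chosen with earlier results of these data known, which limits what their p-values between genotypes can show. A seventh list, of embryonic globins and the alpha globin chaperone, had none of its 7 genes in the table, and these are not analysed here. In GFP-positive HSC, 3 of the 83 rose in KO in limma's test, where 0.432% of all genes were called in either direction. An unadjusted p under 0.05 was found for 17 of the 83 (20.5%), beside 15.3% of all genes. Hemgn, a nuclear protein of red cell precursors, stood at 169 ± 40.9 in KO against 26.1 ± 26.2 in Ctrl (log2 3.15, SE 0.63, adjusted p = 0.0234). Tent5c stood at 128 ± 121 against 0.718 ± 0.999 (4.41, SE 0.96, adjusted p = 0.0370), and Zfpm1, which encodes the GATA1 cofactor FOG1, at 154 ± 47.8 against 33.6 ± 41.6 (2.60, SE 0.57, adjusted p = 0.0371), each n = 3. Without the Ctrl library of low detection none of the 3 passed (adjusted p = 0.0627, 0.0841 and 0.125), nor did any on the 6 compared libraries alone, while without the low-detection pair all 3 passed (0.0129, 0.0156 and 0.0388).

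In the other 3 populations 0 of the 83 passed in limma's test between genotypes, and 4, 11 and 8 had an unadjusted p under 0.05 in GFP-negative HSC, GFP-negative LMPP and GFP-positive LMPP. These are 4.82, 13.3 and 9.64% of the lists, beside 3.44, 2.48 and 7.72% of all genes, so that the first and the last lie near the share of all genes. Tent5c had the smallest p of the maturation list in all 3, with log2 differences of 3.799, 4.04 and 4.29 (adjusted p = 0.159, 0.202 and 0.261). Of the 19 membrane and blood group genes, 17 had a fitted difference above 0 in GFP-negative LMPP and 8 an unadjusted p under 0.05, with a median of 1.56 beside -0.01 over all genes. Sptb stood there at 116 ± 99.1 in KO against 7.65 ± 12.02 in Ctrl (3.47, SE 0.93, adjusted p = 0.531). The median of that list was 0.34 in GFP-negative HSC, 0.39 in GFP-positive HSC and 0.54 in GFP-positive LMPP. The 14 genes of heme synthesis and transport, which make and move what Alas2 begins, had medians of 0.06, 0.38, -0.08 and -0.06 in the order used above. The 13 genes of iron supply had medians of 0.08, -0.25, 0.05 and 0.10, the 10 enzymes -0.28, 0.10, -0.09 and 0.30, the 12 maturation genes 0.22, 0.39, 0.04 and 0.02 and the 15 regulators -0.16, 0.11, 0.14 and 0.05.

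Gata1, Klf1 and Car1, chosen here after their values were seen, are given beside the members and do not stand for their lists. Of the 15 regulators, 4, 9, 12 and 8 had a fitted difference above 0 in the order used above, and of the 10 enzymes 3, 6, 4 and 7. Gata2, another regulator, had means of 3923 in KO against 1621 in Ctrl GFP-negative HSC. Epor had 31.4 against 1.13 in GFP-negative LMPP. Gata1, the master transcription factor of the lineage, stood at 168 ± 79.3 in KO and 144 ± 41.1 in Ctrl GFP-negative HSC (log2 0.16, SE 0.79). Klf1, the activator of adult beta globin, stood at 105 ± 72.1 against 135 ± 74.5 (-0.60, SE 0.81), and Car1, carbonic anhydrase 1, at 673 ± 618 against 1284 ± 703 (-1.30, SE 1.19). Hbb-bs in the same libraries stood at 1447 ± 304 against 72.5 ± 48.5. In GFP-positive HSC Gata1 stood at 28.2 ± 22.04 in KO against 0.173 ± 0.123 in Ctrl (2.64, SE 0.79, adjusted p = 0.129), with log2 differences of 0.29 for Klf1 and 0.17 for Car1. In GFP-negative LMPP the differences were 1.19 for Gata1, -0.12 for Klf1 and -1.04 for Car1. In GFP-positive LMPP Klf1 stood at 13.5 ± 14.3 in KO against 1.23 ± 1.62 in Ctrl (1.35, SE 0.81, adjusted p = 0.646), and the differences of Gata1 and Car1 were -0.39 and -0.70. Gata1 was at 0, 0.469 and 1.45 in those KO libraries and Car1 at 1.74 to 11.9, while Hbb-bs was at 421 to 5165. None of Gata1, Klf1 and Car1 passed between genotypes in any population.

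Between gates several of these genes passed where no member did. In limma's test in Ctrl HSC, 6 of the 15 regulators fell in GFP-positive cells (Gata1, Gata2, Klf1, Zfpm1, Epor and Sox6), as did 6 of the 19 membrane genes (among them Aqp1, Ermap, Ank1, Sptb and Add2) and 4 of the 10 enzymes (Car1, Pklr, Hemgn and Car2). Over all genes 2.72% were called there in either direction. Car1 fell by 6.37 on the log2 scale (SE 1.19, adjusted p = 0.00307) and Gata1 by 5.08 (SE 0.79, adjusted p = 0.000522). The list medians were -0.62, -2.0005 and -1.58, beside -1.85 for the 6 members (-1.21 without the low-detection pair) and -0.24 over all genes. The counts were 4, 3 and 4 without the Ctrl library of low detection, 8, 7 and 4 without both, and 0 in each list when only the 6 libraries compared were fitted. Alas1, the housekeeping counterpart of Alas2, rose (947 ± 385 against 232 ± 12.9, log2 1.92, adjusted p = 0.0285), while Alas2 stood at 7.68 ± 10.3 against 32.3 ± 14.3 and did not pass. Cpox, a later enzyme of heme synthesis, fell (log2 -2.22, adjusted p = 0.0226), as did Foxo3 (-0.96, adjusted p = 0.0366). Without the Ctrl library of low detection Alas1 passed, but Cpox and Foxo3 did not (adjusted p = 0.0776 and 0.168). On the 6 compared libraries alone none of the 3 passed.

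In KO HSC, where 0.376% of all genes were called in either direction, Aqp1, Pklr and Klf1 fell in GFP-positive cells. Klf1 stood at 3.16 ± 1.82 against 105 ± 72.1 (log2 -3.57, SE 0.81, adjusted p = 0.0439), and Hbb-bs at 492 ± 249 against 1447 ± 304 without passing. All 19 membrane genes had a fitted value below 0 there, with a median of -1.57 beside -1.42 for the 6 members and -0.05 over all genes. From HSC to LMPP among KO GFP-negative cells, Gata1 (17.5 ± 23.7 against 168 ± 79.3, log2 -3.58, adjusted p = 0.0208), Car1 and Pklr fell (0.876% of all genes called). In Ctrl GFP-negative cells Ermap, Aqp1, Add2, Car1, Pklr, Gata1 and Sox6 fell (0.37% of all genes called). The medians of the membrane list were -1.08 in KO and -1.98 in Ctrl, beside -0.31 and -0.56 for the 6 members and -0.01 and 0.01 over all genes. Whether the members differed from these genes in their response to either gate was not tested. In KO LMPP with all libraries, Tfrc rose and Car2 and Nfe2 fell with GFP (1.15% of all genes called). Tfr2 fell from HSC to LMPP among KO GFP-positive cells (0.611% called). Without the KO library of low detection none of these 4 passed (adjusted p = 0.0521, 0.173, 0.169 and 0.231), and without the low-detection pair Tfrc alone did (0.00847).

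**Figure D4:**
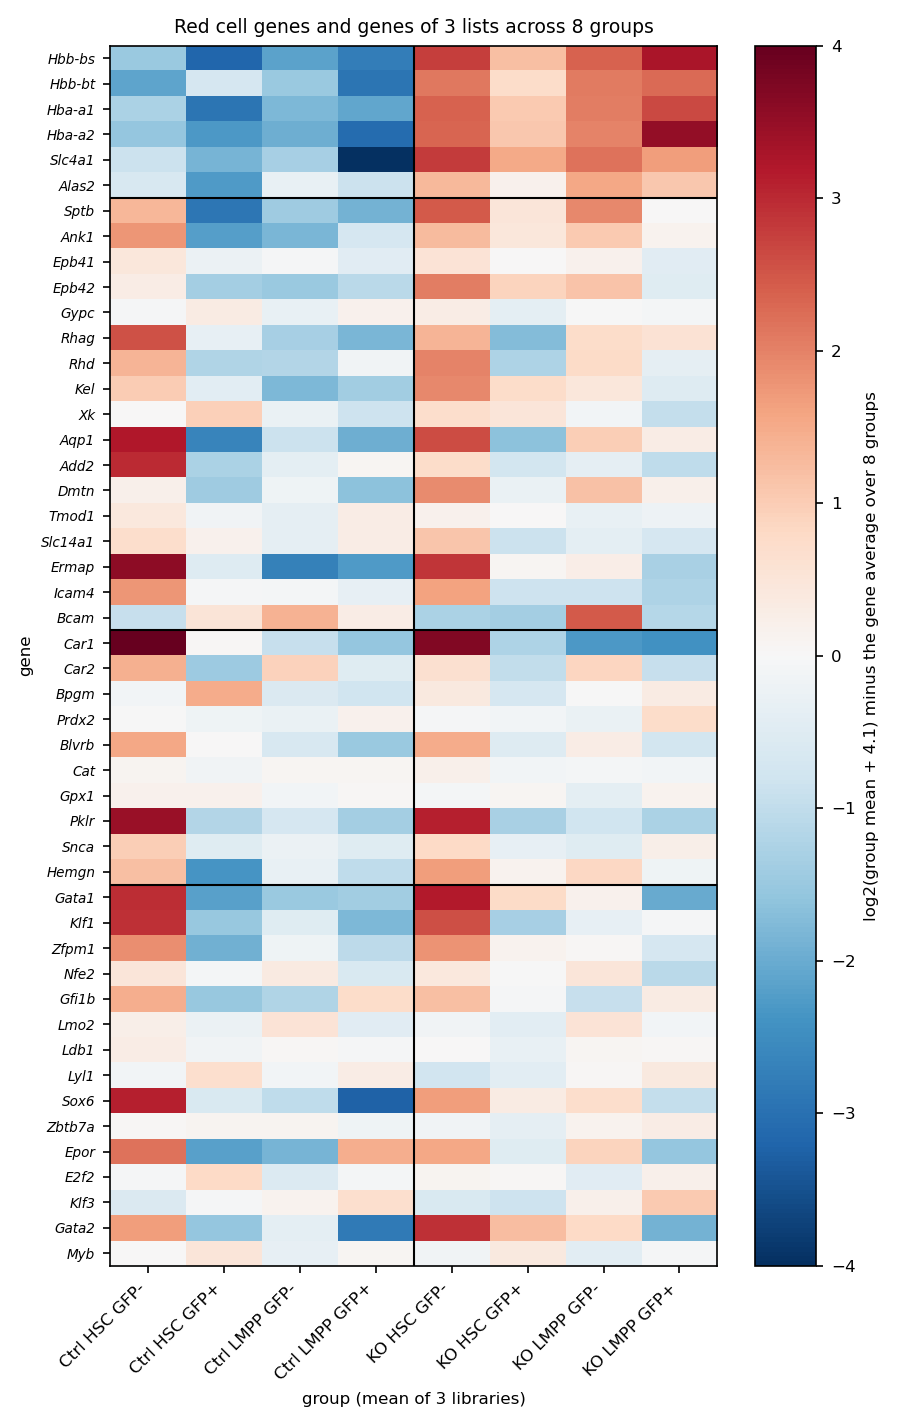
The heat map shows log2(group mean + 4.1) minus each gene's average over the 8 groups, for the 6 members (top block), 17 membrane genes, the 10 enzymes and the 15 regulators. The members separate KO from Ctrl columns in all 4 populations, with Hbb-bs at 492 to 2048 in KO and 20.0 to 72.5 in Ctrl, while Gata1 (168 and 144) and Car1 (673 and 1284) are highest in the GFP-negative HSC column of KO and of Ctrl. Gata1 and Car1 were chosen after their values were seen and do not stand for their blocks. In the same blocks Gata2 and Hemgn had a higher mean in KO than in Ctrl in all 4 populations, and Car1 had a lower one.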

How the data were processed

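RNA of sorted bone marrow cells was read from 24 libraries (76 cycles), 8 groups of n = 3 by label. The signal in the deposited table consists of normalised counts, which the authors had computed per gene and library. Trimmomatic 0.33, HTSeq 0.6.1, edgeR and the build mm10 are named in the submitters' processing notes. The aligner, the edgeR version and the scaling are not given in the sources used here. Only 0.594% of values were whole within 0.001, so no count model was fitted and read depth is unknown.

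GENCODE M21 named 16978 of 17149 genes and gave exon lengths (171 had no name). Genes with at least 1 ppm of the library total in at least 3 libraries were tested (16215, all 6 members included). The scale was log2(value + 4.1), where 4.1 is 0.5 ppm of the mean total, which understates changes of low genes. limma 3.58.1 (R 4.3.3) fitted 8 group means to all 24 libraries (empirical Bayes with trend, 16 residual and 9.53 prior degrees of freedom). Benjamini-Hochberg adjustment ran over all genes within each of 16 comparisons, with a threshold of 0.05. The fit was tested on simulated data. No test of the ratios between genotypes is given. Promoters were aligned with Biopython 1.88.

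The members and all lists were chosen with earlier results of these data known. Named genes were the members, the 6 most correlated genes for Hbb-bs, Slc4a1 and Alas2 (predicted genes left out), and for each list and comparison up to 6 passing genes in each direction, or the gene with the smallest p. A few results that this rule would name are not reported here. Alternatives were other added constants, no filter, equal totals, leaving out the low-detection pair, library weights, compared groups alone, a replicate block, the label number as a random effect, each replicate left out and ratios without length scaling.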

Additional observations from a re-analysis of the deposited data

How the results depend on the processing

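No log2 difference of a member changed sign where it was called. Uncalled differences by gate did change sign without the low-detection pair, and their values are given with those differences. The number of the 6 genes past an adjusted p of 0.05 in limma's test for KO against Ctrl moved more, and nothing is read from it, since the genes were chosen for this contrast. In GFP-negative HSC it was 3, and it became 1 with a constant of 0.1 ppm and 5 with 2 ppm, without the low-detection pair, with library weights, with the compared groups alone and with the replicate block. In GFP-positive HSC it was 3, and became 5 without the low-detection pair and 0 with library weights or the compared groups alone. In GFP-negative LMPP it was 2, and became 0 with 0.1 ppm and 5 without the low-detection pair, with library weights, with the compared groups alone and with the replicate block. In GFP-positive LMPP it was 5 and became 0 with the compared groups alone. Leaving out 1 library gave 0 to 3, 0 to 5, 0 to 0 and 0 to 5. It became 0 in GFP-negative HSC without replicate 1 or 2 of either genotype, and in GFP-negative LMPP without any 1 of the 6. In GFP-positive HSC it was 0 without KO replicate 2 or 3, 1 without Ctrl replicate 2 and 5 without Ctrl replicate 3. In GFP-positive LMPP it was 0 without Ctrl replicate 1 or 2 or KO replicate 3, and 2 without Ctrl replicate 3. The cause was not tested.

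For GFP the number was 0 and became 1 with library weights in Ctrl LMPP, KO HSC and KO LMPP, 1 with the compared groups alone in KO HSC, and 0 to 1 in Ctrl HSC when 1 library was left out (1 without GFP-positive replicate 3). It was 0 under every alternative run for LMPP against HSC and for the interactions. Samples with 1 replicate number deviated together only weakly (r from -0.03 to 0.20, not above 0.1 for every pair in any comparison). Every sample correlated best with its own number in the 4 comparisons by GFP, replicate 2 did not in those of KO against Ctrl, and 1 number did not in 2 of the 4 of LMPP against HSC, so the replicate block is given here alone. Ratios without length scaling kept their direction. Read depth is unknown, and the level at which a gene counts as absent differs between libraries, since 13 of the 24 list no gene at 0.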
